A study of Mus musculus with 44 samples.

Results

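The response of the spleen to 2-butoxyethanol (2BE) was set against that of the liver, 4 h after treatment, in B6C3F1 mice, a hybrid laboratory strain. It was measured as a difference of differences on the log2(intensity + 1) scale, in which the change between 2BE and vehicle in the liver was taken from the change between 2BE and vehicle in the spleen. The arrays were chosen by their labels alone and numbered 15 of the 44 in the series: 4 spleens given 2BE, 4 spleens given vehicle, 4 livers given 2BE and 3 livers given vehicle, all at 4 h. The remaining arrays of the series were of liver, spleen and bone marrow at 7 d. All animals were anaesthetised with ketamine and acepromazine before they were killed, in both arms alike, and a piece of the left lateral liver lobe and a piece of a cross-section of the spleen were taken. Groups were taken from the sample titles, which give 2BE or vehicle, although the treatment field of these samples reads reduced oxygen or control. Dose and route are not given in the sources used here, nor are sex or age. Each array is labelled as a replicate, but nothing states that replicates were separate animals or that a spleen and a liver came from 1 animal, so p-values measure the spread between these samples.

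2BE is a glycol ether solvent that the liver oxidises to butoxyacetic acid, which swells and lyses red blood cells in rodents. The spleen clears damaged red cells, and the liver takes up the haemoglobin and haem that they release. Cells under stress first transcribe immediate early genes, which need no new protein synthesis. Genes of their feedback inhibitors, chaperones, chemokines and cytokines follow, and adrenal glucocorticoids act on many tissues at the same time.

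The array medians lay between 87.0 and 89.2 intensity units in the spleen and between 41.2 and 42.5 in the liver, so each organ may have been normalized on its own. Levels were therefore read only within an organ, and organs were compared by their responses. All 9 measured B cell markers stood above the median of all probe sets in the spleens and 2 of 9 did in the livers, while 2 of 11 hepatocyte markers did in the spleens and all 11 in the livers. Each array correlated at 0.987 to 0.995 on average with the others of its group. A pair of spleen arrays stood apart by markers of other cells. In 2BE replicate 3 the adipocyte gene Adipoq was at 11.28 on the log2 scale (3.88 to 6.93 in the other 2BE spleens, 3.66 to 6.13 in the vehicle spleens), and the mesothelial genes Msln and Upk3b were at 7.90 and 8.94. The summed intensity of 8 neutrophil markers had a median of 32098 in the 2BE spleens and of 40120 in the vehicle spleens, among which replicate 3 stood at 100200. Without 2BE replicate 3 the count of differing genes given next was 257, and without vehicle replicate 3 it was 366. In whole organs, fewer cells of a type and less RNA per cell cannot be told apart.

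Both organs responded within 4 h, and most calls were made in a single organ, which by itself does not show that the organs differ. In the spleen 938 of 18193 genes changed at an adjusted p under 0.05 (5.16%), 602 higher (3.31%) and 336 lower (1.85%). In the liver 821 changed (4.51%), 590 higher (3.24%) and 231 lower (1.27%). Called in both were 138 genes, which made up 14.7% of the spleen calls and 16.8% of the liver calls. Of these, 108 rose in both organs (0.594% of all genes), 23 fell in both (0.126%) and 7 moved in opposite directions (0.0385%). The shared rises made up 17.9% of the spleen's rises and 18.3% of the liver's. With only each organ's own 4 h arrays behind its spread, 508 genes were called in the spleen, 176 in the liver and 25 as shared rises. A block on the replicate number left 471 liver calls and 7 shared falls.

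The difference between the organs' responses itself passed for 323 genes (1.78%), of which 170 were higher in the spleen (0.934%) and 153 lower (0.841%). That fit has no pairing of the organs. With a block that pairs them by replicate number within an arm, 159 genes passed, 102 higher and 57 lower in the spleen. After each array was centred on its median, 42.3% of the called differences were higher in the spleen, against 52.6% without it. At least 2-fold were 147 of the differences, 86 higher and 61 lower in the spleen. Among the 323 genes, 154 were called in the spleen and not in the liver, 126 in the liver and not in the spleen, 21 in both and 22 in neither. At an unadjusted p under 0.05 there were 2330 genes. Over all 18193 genes the spleen and liver responses had a Pearson correlation of 0.278 and a Spearman correlation of 0.208, as a description across genes of the same arrays. A gene was placed in a single-organ class when it was called in that organ with a change of at least 2-fold, was not called in the other organ, changed there by less than 0.5 on the log2 scale, and had a called difference. By this rule 51 genes rose in the spleen only (0.28%), 41 rose in the liver only (0.225%), 6 fell in the spleen only (0.033%) and 10 fell in the liver only (0.055%). Of the 51 spleen-only rises 19 had liver levels below the median of the liver's probe sets, and of the 41 liver-only rises 9 had spleen levels below the spleen's. The median gene stood at -0.03 in the spleen and -0.02 in the liver.

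**Figure D1:**
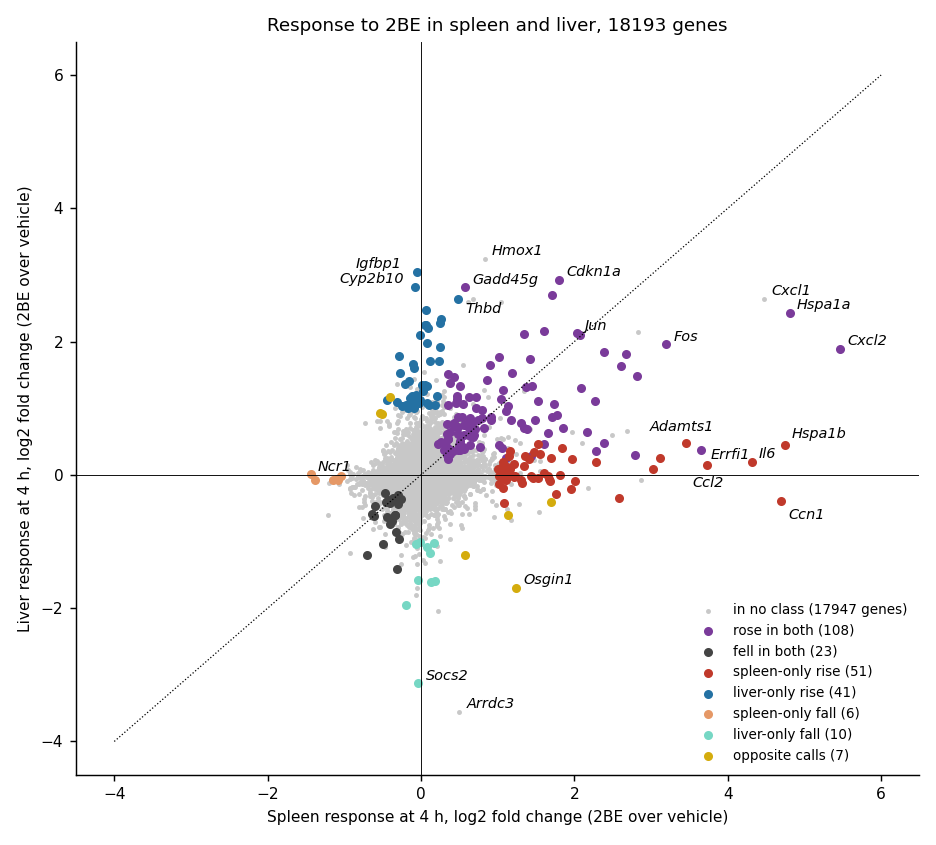
Response to 2BE at 4 h of 18193 genes in the spleen (x axis) and in the liver (y axis), each as log2 fold change of 2BE over vehicle. Coloured points mark the 108 genes that rose in both organs, the 51 that rose in the spleen only, the 41 that rose in the liver only and the smaller classes, and the dotted line marks equal responses.

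Some genes of the activator protein 1 (AP-1) family and some early feedback genes rose in both organs. Of 16 AP-1 and EGR early genes 11 rose in the spleen and 7 in the liver, 6 of them in both and 4 in neither, with medians of 1.49 and 0.56 (log2), against -0.03 and -0.02 over all genes. Shares of all genes that rose were 3.31% in the spleen, 3.24% in the liver and 0.594% in both. Fos, which encodes a subunit of AP-1, stood at 11.43, 10.96, 10.74 and 10.66 in the 2BE spleens, against 7.27, 7.70, 7.86 and 8.16 in the vehicle spleens (log2 levels). The liver arrays read 6.54, 6.17, 6.66 and 7.75 after 2BE, against 4.52, 4.75 and 5.19 after vehicle. Treated and vehicle arrays did not overlap in either organ. Fos rose 9.19-fold in the spleen (log2 fold change 3.20 ± 0.21, SE, adjusted p = 8.57e-09) and 3.89-fold in the liver (1.96 ± 0.37, adjusted p = 0.00647). The difference between these responses, 1.24 ± 0.43, did not pass (adjusted p = 0.199, 95% interval 0.33 to 2.15), and it did pass without liver 2BE replicate 4, the highest of the treated livers (1.56, adjusted p = 0.0282). Jun, the partner of Fos in AP-1, was at 10.19, 9.97, 9.61 and 9.98 in the 2BE spleens, against 7.73, 7.98, 7.63 and 8.28 in the vehicle spleens. Levels in the liver were 8.28, 8.75, 8.62 and 8.81 after 2BE, against 6.57, 6.56 and 6.33 after vehicle. The arms were apart in both organs, and the rises were of near size, 2.03 ± 0.15 in the spleen and 2.13 ± 0.31 in the liver, with a difference of -0.09 (interval -0.58 to 0.39). A p that misses the threshold does not show that the organs responded alike, and the interval gives the sizes left possible.

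Of 20 MAP kinase phosphatase and other early feedback genes 9 rose and 1 fell in the spleen and 6 rose in the liver, 5 of them in both, and 9 were called nowhere, with medians of 0.33 and 0.12. Differences were called higher in the spleen for 3 of these genes and lower for 2. Among all genes 3.31% rose in the spleen and 3.24% in the liver, and 1.78% had a called difference. Dusp1, a phosphatase that switches off the stress-activated MAP kinases, stood at 12.48, 12.60, 11.91 and 12.27 in the 2BE spleens, against 9.56, 9.89, 9.93 and 10.37 in the vehicle spleens. In livers the values were 9.98, 10.55, 10.43 and 10.57 after 2BE, against 7.97, 8.55 and 9.08 after vehicle. Every treated array lay above every vehicle array of its organ, and Dusp1 rose by 2.38 ± 0.17 in the spleen and 1.85 ± 0.27 in the liver (difference 0.53, interval -0.19 to 1.25). Plk3, a polo-like kinase that responds to stress, was at 9.31, 9.35, 8.97 and 8.87 in the 2BE spleens, against 7.07, 7.04, 7.07 and 7.04 in the vehicle spleens. The livers stood at 9.46, 9.93, 9.48 and 9.96 after 2BE, against 8.21, 7.29 and 7.32 after vehicle. The vehicle spleens were almost level and vehicle liver replicate 1 stood highest of its group, and the rises were 2.07 ± 0.10 and 2.10 ± 0.38, which differed by -0.03 (interval -0.61 to 0.55). Also shared, with no called difference, were the AP-1 gene Fosl2 (2.09 in the spleen and 1.30 in the liver), whose second probe set stood at 0.11 and 0.03, and the scaffold gene Akap12 (2.68 and 1.82). Egr1, another early transcription factor gene, rose in the spleen (2.82 ± 0.22, adjusted p = 9.67e-08) and stood at 2.15 ± 0.60 in the liver, short of the threshold (adjusted p = 0.0533), with liver 2BE replicate 4 at 11.06 and the other treated livers at 7.63 to 8.49.

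The promoters of Fos and Dusp1 are shown because both genes rose in both organs and both windows hold the letters TGACG, a core of the cyclic AMP response element, in capitals. The windows are RefSeq's 250 bases before to 50 after the annotated start on GRCm38.p6, Fos at chr12:85473640-85473939, plus strand and Dusp1 at chr17:26508423-26508722, minus strand, written 5′ to 3′ along the gene.
Fos: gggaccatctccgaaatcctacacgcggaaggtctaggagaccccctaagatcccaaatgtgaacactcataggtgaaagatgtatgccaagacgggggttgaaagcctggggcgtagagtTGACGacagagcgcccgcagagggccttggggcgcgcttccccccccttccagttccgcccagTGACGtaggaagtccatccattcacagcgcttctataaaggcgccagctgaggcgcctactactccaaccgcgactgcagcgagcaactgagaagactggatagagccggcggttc
Dusp1: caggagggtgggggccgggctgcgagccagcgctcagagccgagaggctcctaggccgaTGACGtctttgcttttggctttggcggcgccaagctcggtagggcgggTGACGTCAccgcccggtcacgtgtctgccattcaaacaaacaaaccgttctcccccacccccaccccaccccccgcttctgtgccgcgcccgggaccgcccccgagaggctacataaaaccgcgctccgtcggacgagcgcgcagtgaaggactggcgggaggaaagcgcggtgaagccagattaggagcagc
Matches on either strand began at bases 122 and 185 of the Fos window and at bases 60, 108 and 111 of the Dusp1 window, the last 2 overlapping on opposite strands. TGACG occurred in 42 of the 79 shared-rise genes that have a window (53.2%), in 14 of 34 spleen-only rises (41.2%), in 12 of 36 liver-only rises (33.3%) and in 30% of 14452 measured genes. A match is a string of letters and was not tested as a binding site.

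Some early genes rose in both organs but more in the spleen. Of the 108 shared rises, 95 had no called difference, 11 rose more in the spleen and 2 more in the liver. With 1 shared fall, 14 genes were shared and unequal (0.077% of all genes). In 94 of the 108, treated and vehicle arrays did not overlap in either organ. The genes were called on these same arrays, so that count is no separate support. Over all genes every treated array lay higher in 4.78% of genes in the spleen, 6.6% in the liver and 1.04% in both. Atf3, a stress-induced repressor of transcription, was at 9.62, 9.15, 8.66 and 8.63 in the 2BE spleens, against 6.66, 6.82, 6.96 and 6.96 in the vehicle spleens. On liver arrays it read 6.80, 6.40, 6.89 and 6.88 after 2BE, against 5.99, 6.25 and 6.07 after vehicle. All treated arrays lay higher in both organs, and its rise of 2.17 in the spleen exceeded that of 0.64 in the liver by 1.53 ± 0.27 (adjusted p = 0.00822, and 0.0515 with the block). The liver rise had an adjusted p of 0.00618, and of 0.0512 with the block. Its call was also lost with responses from the 15 arrays and with each organ's own variance at 4 h. Rgs1, which turns off signalling by G protein-coupled receptors, rose by 2.38 in the spleen and 0.48 in the liver (difference 1.90, adjusted p = 0.000335), its liver call being lost with the block (adjusted p = 0.173) and without vehicle liver replicate 2 or 3 or liver 2BE replicate 3 or 4 (0.0995 to 0.139). A fit of all 44 arrays, responses from the 15 arrays, each organ's own variance and array weights also ended that liver call.

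Errfi1, an inhibitor of the EGF receptor that glucocorticoids and growth factors induce, had the largest called difference among these 11 genes but for Cxcl2, while its spleen rise was smaller than that of Hspa1a. It stood at 12.27, 12.67, 11.70 and 12.02 in the 2BE spleens, against 8.31, 8.79, 7.71 and 9.22 in the vehicle spleens. Liver values were 13.94, 14.07, 14.00 and 14.17 after 2BE, against 13.70, 13.62 and 13.71 after vehicle. The vehicle livers were already at the 99.7th percentile of liver probe sets and the vehicle spleens at the 78.0th percentile of spleen probe sets. Errfi1 rose 12.6-fold in the spleen and 1.29-fold in the liver, a difference of 3.28 ± 0.37 (adjusted p = 0.000350). The small liver rise (adjusted p = 0.0362) was lost with the block, where its adjusted p was 0.149. Leaving out any vehicle liver, or liver 2BE replicate 2, 3 or 4, also ended that call (adjusted p of 0.0547 to 0.113). A fit of all 44 arrays, responses from the 15 arrays, each organ's own variance, array weights and probe-set means ended it too.

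**Figure D2:**
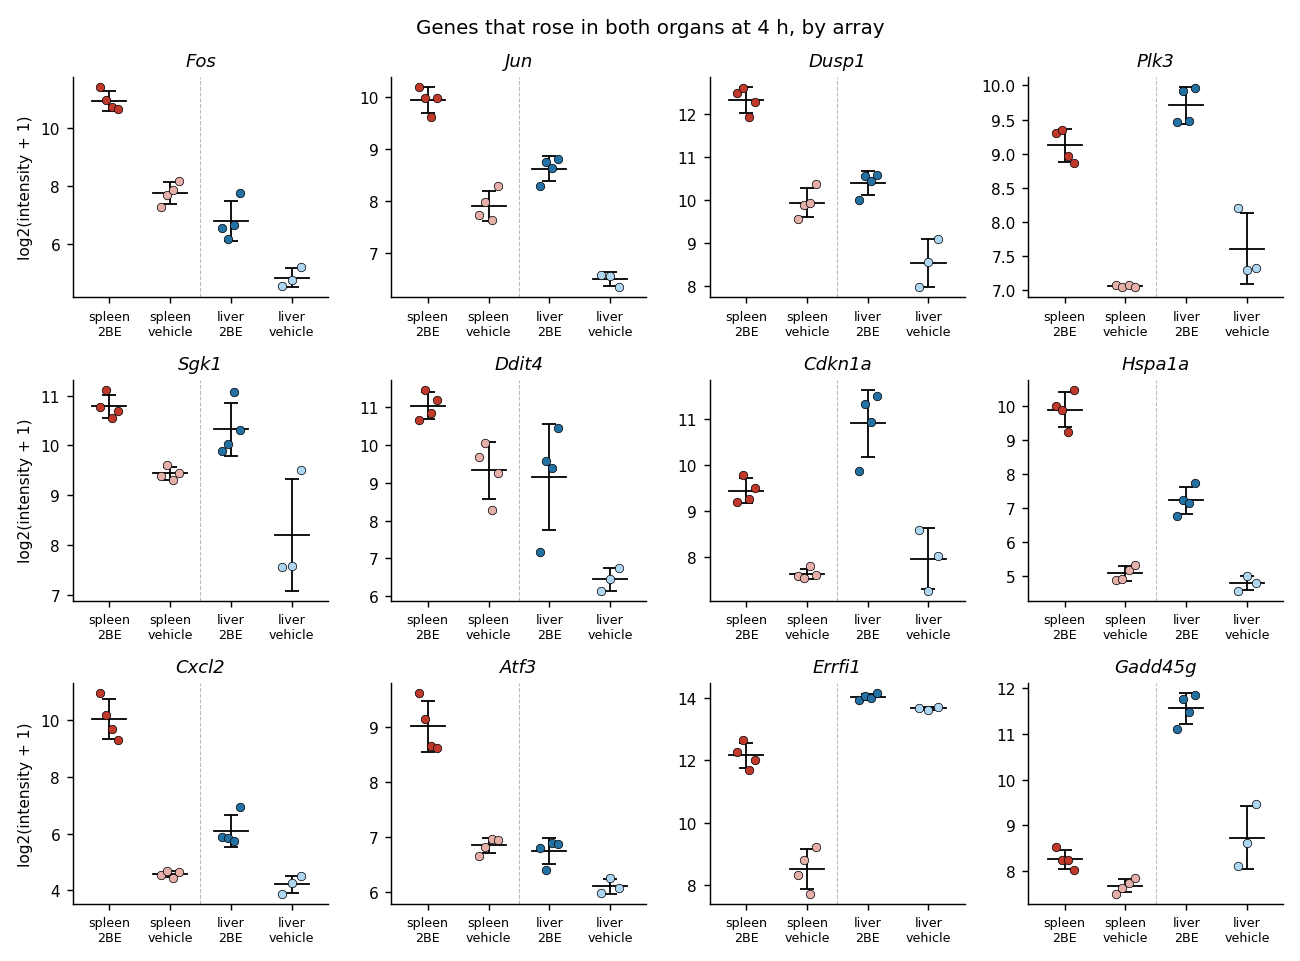
Levels of 12 genes that rose in both organs, as log2(intensity + 1) on each array, with the spleen left of the dashed line and the liver right of it and 2BE left of vehicle within each organ. Horizontal bars are group means and whiskers are SD (n = 4, and 3 vehicle livers). Treated arrays lie above vehicle arrays in both organs, with larger shifts in the spleen for Cxcl2, Hspa1a, Atf3 and Errfi1 and in the liver for Gadd45g.

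Some genes of the glucocorticoid response rose in both organs. Of 16 such genes, metallothioneins included, 9 rose in the spleen (median 1.35) and 11 in the liver (median 1.15), 7 of them in both, and 1 difference was called in each direction, Errfi1 and Tat. The list shares Dusp1, Sgk1, Ddit4 and Cdkn1a with other lists given here. Shares of all genes that rose were 3.31% in the spleen, 3.24% in the liver and 0.594% in both. Sgk1, a kinase that takes part in sodium transport and cell survival, was at 10.77, 11.11, 10.55 and 10.69 in the 2BE spleens, against 9.39, 9.60, 9.30 and 9.45 in the vehicle spleens. Among livers it stood at 9.88, 10.02, 11.08 and 10.31 after 2BE, against 7.54, 7.56 and 9.50 after vehicle. Treated arrays lay above vehicle arrays in both organs, with vehicle liver replicate 3 close to the treated ones. Sgk1 rose by 1.35 ± 0.12 in the spleen and 2.12 ± 0.41 in the liver, and the difference of -0.77 (interval -1.88 to 0.34) passed only when vehicle liver replicate 3 was left out, among single arrays (-1.42, adjusted p = 0.0469).

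Ddit4, which restrains the growth kinase mTOR, was at 10.66, 11.46, 10.84 and 11.19 in the 2BE spleens, against 9.69, 10.06, 8.29 and 9.26 in the vehicle spleens. Its liver levels were 7.16, 9.57, 9.39 and 10.45 after 2BE, against 6.15, 6.44 and 6.74 after vehicle. The spread was wide, with liver 2BE replicate 1 nearest to the vehicle livers. Ddit4 rose by 1.71 ± 0.39 in the spleen (adjusted p = 0.0117) and 2.70 ± 0.60 in the liver (adjusted p = 0.0161). The liver call was lost with the block (adjusted p = 0.0643), without vehicle replicate 1 (0.0664) and without 2BE replicate 4 (0.0525). It was also lost with each organ's own variance at 4 h, and the spleen call with responses from the 15 arrays. The clock and steroid-responsive gene Per1 rose by 1.52 in the spleen and 1.12 in the liver (adjusted p = 0.0189, 0.11 with the block, and 0.0568 to 0.0867 without vehicle liver replicate 1 or 3 or liver 2BE replicate 4). The metallothionein genes Mt1 and Mt2, which bind zinc and other metals, rose by 2.48 and 2.69 in the spleen. In the liver they stood at 0.60 and 0.66 and did not pass (adjusted p = 0.614 and 0.623), and their differences did not pass either (adjusted p = 0.142 and 0.190), though they passed without vehicle spleen replicate 4 (2.32 and 2.55, adjusted p = 0.0168 and 0.0211).

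Some growth arrest genes rose in both organs. Over all genes 3.31% rose in the spleen, 3.24% in the liver and 0.594% in both. Of 20 p53 targets and growth arrest genes 6 rose in the spleen and 5 in the liver, 3 of them in both, 12 were called nowhere, and 1 difference was called higher and 3 lower in the spleen. Cdkn1a, the cyclin-dependent kinase inhibitor p21, was at 9.19, 9.79, 9.28 and 9.51 in the 2BE spleens, against 7.59, 7.55, 7.81 and 7.62 in the vehicle spleens. The liver arrays read 9.88, 11.32, 10.93 and 11.49 after 2BE, against 8.59, 7.28 and 8.04 after vehicle. The arms did not overlap in either organ. It rose 3.49-fold in the spleen and 7.63-fold in the liver, and the difference of -1.13 did not pass (adjusted p = 0.286), though it did without liver 2BE replicate 1, the lowest treated liver (-1.47, adjusted p = 0.0435). Gadd45g, a stress sensor that acts on MAP kinase signalling, was at 8.52, 8.24, 8.25 and 8.03 in the 2BE spleens, against 7.51, 7.64, 7.75 and 7.86 in the vehicle spleens. Levels in the liver were 11.11, 11.76, 11.47 and 11.85 after 2BE, against 8.11, 8.61 and 9.47 after vehicle. All treated arrays were higher, by 0.57 ± 0.12 in the spleen and 2.82 ± 0.49 in the liver, and the difference of -2.24 ± 0.34 passed (adjusted p = 0.00255). The Gadd45g spleen call was lost in the fit of all 44 arrays (adjusted p = 0.265) and with responses from the 15 arrays (0.193).

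Some feedback genes of NF-kB, the transcription factor of acute inflammation, rose in the spleen and in the liver. Of 21 genes 7 rose in the spleen and 8 in the liver, 5 of them in both, and 0 differences were called by limma, at medians of 0.23 in both organs. At an unadjusted p under 0.05 the difference of 4 of the 21 would count. For comparison, 3.31% of all genes rose in the spleen, 3.24% in the liver and 0.594% in both. Tnfaip3, which encodes the NF-kB inhibitor A20, rose by 1.42 ± 0.18 in the spleen and 1.73 ± 0.22 in the liver, its second probe set giving 0.84 and 0.49. Nfkbia, the gene of the inhibitor IkB alpha, rose by 0.53 and 0.87, its spleen call being lost without any of 5 spleen arrays (vehicle replicates 1 and 3, 2BE replicates 1, 2 and 3, adjusted p of 0.0657 to 0.127). Responses from the 15 arrays and each organ's own variance at 4 h also ended that spleen call. Cebpb and Cebpd, transcription factors of the acute phase and of inflammation, rose by 1.45 and 1.60 in the spleen and by 1.34 and 2.16 in the liver. The second probe set of Cebpd gave 0.37 and 0.32. Zfp36, whose protein marks cytokine mRNAs for decay, rose by 0.89 in the spleen and 1.65 in the liver; its spleen arms overlapped, and its spleen call was lost without vehicle replicate 1 or 2BE replicate 1 or 2 (adjusted p of 0.0501 to 0.0639).

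More heat shock genes rose in the spleen than in the liver. Of 17 chaperone genes 6 rose in the spleen and 2 in the liver, 1 of them in both, with medians of 0.27 and 0.12. For 2 of them the difference was called, both higher in the spleen, and 10 were called nowhere. Among all genes 3.31% rose in the spleen and 3.24% in the liver, and 1.78% had a called difference. Hspa1a, a stress-inducible chaperone of the Hsp70 family, was at 9.98, 9.87, 9.23 and 10.46 in the 2BE spleens, against 4.89, 4.91, 5.18 and 5.33 in the vehicle spleens. In livers the values were 6.77, 7.24, 7.15 and 7.74 after 2BE, against 4.58, 5.00 and 4.81 after vehicle. The treated arrays stood far above the vehicle arrays in both organs. Hspa1a rose 28-fold in the spleen (4.81 ± 0.21, adjusted p = 4.26e-11) and 5.38-fold in the liver (2.43 ± 0.17, adjusted p = 1.38e-06), and the spleen response was larger by 2.38 ± 0.34 (adjusted p = 0.00185). Hspa1b, which lies beside Hspa1a and encodes a nearly identical protein, was at 11.94, 11.97, 11.40 and 12.22 in the 2BE spleens, against 6.76, 7.01, 7.33 and 7.47 in the vehicle spleens. The livers stood at 9.51, 9.75, 9.98 and 9.68 after 2BE, against 8.92, 9.41 and 9.52 after vehicle. Here the liver arms overlapped, and the vehicle livers were already at the 91.0th percentile of liver probe sets, against the 38.3rd for Hspa1a. Hspa1b rose 26.8-fold in the spleen (4.74 ± 0.37) and stood at 0.45 ± 0.25 in the liver (adjusted p = 0.391), a difference of 4.29 ± 0.28 (adjusted p = 3.28e-06). Its other probe sets gave 5.02 and 4.75 in the spleen and 0.53 and 0.41 in the liver. Whether the probe sets of these copies cross-hybridise was not tested, so the split between them is uncertain. The other chaperone genes that rose in the spleen were Hspb1 (1.37 there and 0.30 in the liver), Hsph1 (0.56 and -0.12), Bag3 (0.48 and 0.44) and Hspe1 (0.30 and 0.01), and none of their differences was called. Leaving out 1 spleen array ended the Hspb1 call there for vehicle replicate 1 (adjusted p = 0.053) and 2BE replicate 2 (0.0527), the Hsph1 call for vehicle replicates 1, 2 and 4 and 2BE replicates 1, 3 and 4 (0.0726 to 0.161), and the Hspe1 call for vehicle replicates 1 and 2 and 2BE replicates 1, 3 and 4 (0.051 to 0.0921). Hspb8 stood at 0.39 in the spleen and rose by 0.76 in the liver.

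The promoters of Hspa1a and Hspa1b are shown because the probe sets used for genes with nearly the same window gave unlike liver responses. They lie at chr17:34972107-34972406, minus strand, and chr17:34959189-34959488, minus strand, in RefSeq's windows on GRCm38.p6, and capitals mark GAANNTTC, the core of a heat shock element.
Hspa1a: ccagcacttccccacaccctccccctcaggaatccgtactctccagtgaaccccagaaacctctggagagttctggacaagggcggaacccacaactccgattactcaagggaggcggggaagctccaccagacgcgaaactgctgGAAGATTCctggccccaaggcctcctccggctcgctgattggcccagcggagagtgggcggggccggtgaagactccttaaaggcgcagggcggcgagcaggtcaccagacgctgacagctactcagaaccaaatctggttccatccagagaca
Hspa1b: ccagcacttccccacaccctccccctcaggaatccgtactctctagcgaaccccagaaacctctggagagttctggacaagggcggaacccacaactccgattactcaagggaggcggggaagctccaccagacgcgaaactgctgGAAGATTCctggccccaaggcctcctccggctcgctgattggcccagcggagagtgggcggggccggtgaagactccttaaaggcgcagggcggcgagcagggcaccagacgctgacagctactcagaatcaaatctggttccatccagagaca
The windows share 296 of 300 bases (98.7%), and the match begins at base 147 in both. The same letters occurred in 9.04% of 27025 windows and in 7.6% of 14452 measured genes. They were in 8 of 79 shared rises, in 4 of 34 spleen-only rises and in 3 of 36 liver-only rises. No bearing of these letters on the responses was tested.

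More chemokine and cytokine genes rose in the spleen than in the liver. Of 17 inflammatory chemokine genes 8 rose in the spleen (median 0.46) and 2 in the liver (median 0.01), and of 17 cytokine and receptor genes 5 rose in the spleen (median 0.37) and 0 in the liver by limma (median -0.03, with 4 at an unadjusted p under 0.05). Over all genes 3.31% rose in the spleen and 3.24% in the liver. Differences were called for 2 of the chemokine and 3 of the cytokine genes, all higher in the spleen. Cxcl2, which draws neutrophils, was at 10.96, 10.17, 9.71 and 9.31 in the 2BE spleens, against 4.54, 4.67, 4.44 and 4.66 in the vehicle spleens. On liver arrays it read 5.86, 5.83, 5.74 and 6.95 after 2BE, against 3.88, 4.27 and 4.49 after vehicle. All treated arrays lay above the vehicle arrays, with liver 2BE replicate 4 highest of its group. Cxcl2 rose by 5.46 ± 0.21 in the spleen and 1.89 ± 0.21 in the liver, a difference of 3.57 ± 0.45 (adjusted p = 0.00106). Its vehicle means lay at the 20.3rd percentile of probe sets in the spleen and the 25.1st in the liver, so both sizes rest on low levels. The related gene Cxcl1 was at 12.35, 11.37, 11.11 and 10.55 in the 2BE spleens, against 6.84, 7.18, 6.61 and 6.84 in the vehicle spleens. Liver values were 13.25, 13.03, 12.48 and 13.39 after 2BE, against 8.69, 11.58 and 10.92 after vehicle. The treated arrays were higher in both organs, but vehicle liver replicate 1 lay far under the other vehicle livers. Cxcl1 rose by 4.48 ± 0.24 in the spleen and stood at 2.64 ± 0.77 in the liver (adjusted p = 0.0646). The difference of 1.83 did not pass (adjusted p = 0.275, interval 0.30 to 3.37), and it passed without that vehicle array (2.69, adjusted p = 0.0152). Other Cxcl1 probe sets gave 7.01 and 1.33 in the spleen and 2.84 and 1.77 in the liver.

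Il6, the cytokine that drives the hepatic acute phase, was at 9.94, 7.78, 8.63 and 6.76 in the 2BE spleens, against 4.19, 3.71, 4.32 and 3.65 in the vehicle spleens. Among livers it stood at 3.72, 3.49, 3.52 and 3.65 after 2BE, against 3.33, 3.55 and 3.33 after vehicle. The treated spleens were all higher than the vehicle spleens and spread over more than 3 log2 units, while the liver arms overlapped near the bottom of the scale, at the 8.26th and 3.39th percentiles of probe sets. Il6 rose by 4.31 ± 0.40 in the spleen and stood at 0.19 ± 0.09 in the liver, a difference of 4.12 ± 0.66 (adjusted p = 0.00405). Ccl2, which draws monocytes, was at 10.58, 8.78, 9.31 and 8.63 in the 2BE spleens, against 5.67, 5.41, 6.04 and 5.26 in the vehicle spleens. Its liver levels were 5.96, 5.68, 5.66 and 5.66 after 2BE, against 5.66, 5.66 and 5.47 after vehicle. Only the spleen arms were apart, and the rise of 3.73 ± 0.28 exceeded the liver's 0.14 ± 0.08 by 3.59 ± 0.46 (adjusted p = 0.00106). Lif, of the Il6 family, rose by 2.01 in the spleen and stood at -0.09 in the liver (difference adjusted p = 0.0162, and 0.0885 with a block pairing the organs within an arm); its second probe set gave 0.03 and 0.01. Csf3, the growth factor of granulocytes, rose by 1.06 and stood at 0.01 in the liver (difference adjusted p = 0.0133, 0.0922 with the replicate block within organs). Ccl3, another chemokine gene, rose in both, by 1.74 and 1.07. Its liver call was lost with responses from the 15 arrays (adjusted p = 0.122) and with each organ's own variance at 4 h (0.0726). The 22 acute phase protein genes, which Il6 is known to induce in hepatocytes, had 0 calls in either organ by limma, at medians of 0.01 in the spleen and 0.08 in the liver (2 and 1 of them at an unadjusted p under 0.05).

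The promoters of Cxcl2 and Il6 are shown as those of chemokine and cytokine genes with a larger spleen response. They lie at chr5:90903649-90903948, plus strand, and chr5:30012864-30013163, plus strand, in RefSeq's windows on GRCm38.p6, and capitals mark a site of NF-kB, searched as GGGA, any base and TTTCC.
Cxcl2: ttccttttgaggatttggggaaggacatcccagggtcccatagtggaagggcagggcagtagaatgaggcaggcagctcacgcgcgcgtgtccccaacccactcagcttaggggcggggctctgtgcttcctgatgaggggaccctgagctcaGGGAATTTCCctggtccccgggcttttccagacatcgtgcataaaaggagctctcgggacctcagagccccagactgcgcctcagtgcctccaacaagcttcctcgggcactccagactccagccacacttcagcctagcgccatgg
Il6: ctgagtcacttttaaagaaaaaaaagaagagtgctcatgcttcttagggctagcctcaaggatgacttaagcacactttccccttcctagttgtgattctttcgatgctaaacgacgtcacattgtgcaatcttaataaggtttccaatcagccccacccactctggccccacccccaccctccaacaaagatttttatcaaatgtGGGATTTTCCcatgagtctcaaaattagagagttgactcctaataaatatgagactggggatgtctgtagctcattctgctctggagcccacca
The match begins at base 154 in Cxcl2 and at base 207 in Il6. It is a rare string, found in 0.466% of 27025 windows and in 0.547% of 14452 measured genes. It was in 2 of 79 shared rises, in 1 of 34 spleen-only rises and in 0 of 36 liver-only rises. The Il6 window also holds the AP-1 letters TGANTCA at base 2 and TGACG at base 116. Across classes those AP-1 letters were in 8.86% of shared rises, 17.6% of spleen-only rises, 16.7% of liver-only rises and 7.54% of measured genes. A glucocorticoid receptor site was in 6.33%, 2.94%, 8.33% and 6.1% of these sets, and the CArG box of serum response factor in 3.8%, 5.88%, 2.78% and 1.58%.

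Matricellular and endothelial genes were another set with more rises in the spleen. Of 13 matricellular and EGF-family genes 6 rose in the spleen and 1 in the liver, and of 19 genes of endothelial activation and clotting control 11 rose in the spleen (median 0.52) and 3 in the liver (median 0.23). Differences called higher in the spleen numbered 2 and 6, and 1 endothelial gene had a lower one. For comparison, 3.31% of all genes rose in the spleen and 3.24% in the liver, and 1.78% had a called difference. Ccn1, a secreted matricellular protein of vessel and wound tissue, had the largest called difference of the genes named by size. It was at 12.10, 11.93, 11.26 and 11.44 in the 2BE spleens, against 6.28, 7.24, 6.83 and 7.58 in the vehicle spleens. The liver arrays read 6.18, 5.93, 6.20 and 5.87 after 2BE, against 6.17, 6.88 and 6.27 after vehicle. The treated spleens stood far above the vehicle spleens, and the liver arms overlapped. Ccn1 rose 26-fold in the spleen (4.70 ± 0.22) and stood at -0.40 ± 0.18 in the liver (adjusted p = 0.253), a difference of 5.09 ± 0.37 (adjusted p = 4.18e-06), and its other probe sets gave 3.73 to 4.97 in the spleen and -0.33 to -0.06 in the liver. Its relative Ccn2, known as connective tissue growth factor, rose in both organs, by 2.61 and 1.64 (difference adjusted p = 0.311).

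Adamts1, a secreted protease that cleaves proteoglycans, was at 9.99, 10.76, 9.84 and 10.33 in the 2BE spleens, against 6.34, 6.75, 6.89 and 7.11 in the vehicle spleens. Levels in the liver were 6.74, 6.75, 7.02 and 7.28 after 2BE, against 6.40, 6.28 and 6.74 after vehicle. The spleen arms were apart and the liver arms overlapped, with responses of 3.46 ± 0.20 and 0.47 ± 0.14 and a difference of 2.98 ± 0.30 (adjusted p = 0.000107). Apold1, an early response gene of endothelial cells, was at 9.85, 9.71, 9.50 and 9.65 in the 2BE spleens, against 6.40, 6.22, 6.96 and 6.69 in the vehicle spleens. In livers the values were 5.67, 6.01, 5.67 and 5.96 after 2BE, against 5.56, 5.48 and 5.67 after vehicle. It rose by 3.11 ± 0.14 in the spleen and stood at 0.26 ± 0.11 in the liver, where the arms overlapped, with a difference of 2.85 ± 0.21 (adjusted p = 4.18e-06). Adamts4, a protease of the same family, rose by 2.28 in the spleen and stood at 0.20 in the liver (adjusted p of the difference 0.00138). Hbegf, a ligand of the EGF receptor, rose by 1.06 and stood at -0.19 in the liver (difference adjusted p = 0.00184). The polo-like kinase gene Plk2 rose by 1.95 and stood at -0.21 in the liver (difference adjusted p = 0.000885), although its second probe set gave -0.34 in the spleen.

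Acta2 and Tagln were picked from the spleen-only rises after their values were seen. Acta2, the smooth muscle actin gene, was at 11.93, 11.86, 11.79 and 11.76 in the 2BE spleens, against 10.70, 10.83, 10.58 and 10.77 in the vehicle spleens. It rose by 1.11 in the spleen and stood at -0.08 in the liver (difference adjusted p = 0.00941, 0.0713 with the block). Tagln, which encodes an actin-binding protein of smooth muscle, rose by 1.81 in the spleen and stood at 0.00 in the liver (difference adjusted p = 0.00559). Of 8 fibroblast and stellate cell markers 2 rose in the spleen, Acta2 and Des, where 3.31% of all genes rose. In the liver 0 of the 8 rose by limma (1 at an unadjusted p under 0.05). In the same list Lrat, Col1a1 and Col1a2 stood at -0.62, -0.14 and -0.00 in the spleen and were not called. The Des difference (0.57, adjusted p = 0.0423) was lost without any of 13 arrays (0.0609 to 0.104) and kept without liver 2BE replicate 2 or spleen 2BE replicate 3. The summed level of that list ranged from 10350 to 13498 in the 2BE spleens and from 6869 to 9863 in the vehicle spleens, and its part in these responses was not tested. Nr4a1, an orphan nuclear receptor of the early response, rose by 1.70 in the spleen and stood at 0.25 in the liver (difference adjusted p = 0.0281). That difference was not called without vehicle liver replicate 1 or 2, liver 2BE replicate 2 or 4, vehicle spleen replicate 1 or spleen 2BE replicate 2 (adjusted p of 0.0517 to 0.0795).

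**Figure D3:**
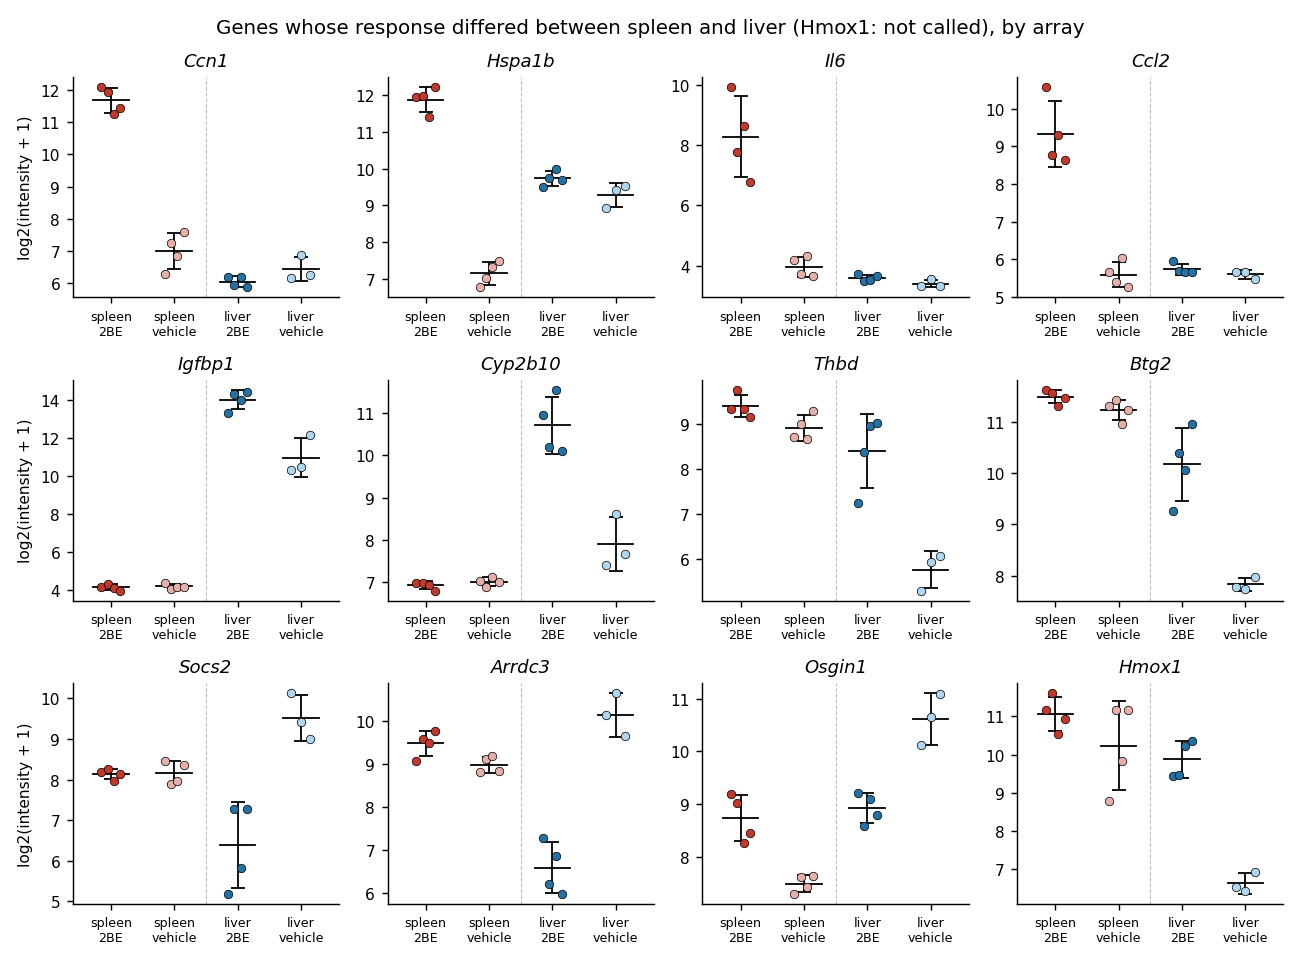
Levels of 12 genes by array as log2(intensity + 1), spleen left of the dashed line and liver right of it, 2BE left of vehicle, with group means and SD (n = 4, and 3 vehicle livers). Ccn1, Hspa1b, Il6 and Ccl2 separate treated from vehicle arrays in the spleen and overlap in the liver, Igfbp1, Cyp2b10, Thbd and Btg2 separate in the liver and overlap in the spleen, and Osgin1 moves in opposite directions.

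More insulin, fasting and glycogen genes rose in the liver than in the spleen. Of 17 such genes 1 rose and 2 fell in the spleen and 6 rose in the liver, at medians of -0.05 in the spleen and 0.78 in the liver, and 4 differences were called lower in the spleen. Shares of all genes were 3.31% rising and 1.85% falling in the spleen, 3.24% rising in the liver and 0.841% with a lower difference. Igfbp1, a binding protein of insulin-like growth factors that fasting and stress induce in hepatocytes, was at 4.16, 4.34, 4.11 and 3.97 in the 2BE spleens, against 4.35, 4.07, 4.19 and 4.17 in the vehicle spleens. The livers stood at 13.31, 14.35, 14.04 and 14.43 after 2BE, against 10.31, 10.49 and 12.15 after vehicle. The spleen arms overlapped at the 13.4th to 13.6th percentile of probe sets, and all treated livers lay above the vehicle livers. Igfbp1 stood at -0.05 ± 0.10 in the spleen and rose by 3.05 ± 0.39 in the liver, a difference of -3.10 ± 0.47 (adjusted p = 0.00291). Ppargc1a, a coactivator of fasting metabolism, was at 5.11, 5.31, 4.94 and 5.20 in the 2BE spleens, against 5.37, 4.86, 4.61 and 4.72 in the vehicle spleens. On liver arrays it read 8.95, 8.82, 8.98 and 9.46 after 2BE, against 7.48, 6.47 and 7.47 after vehicle. The difference was -1.66 ± 0.32 (adjusted p = 0.0142), with the arms overlapping in the spleen and apart in the liver. Tat, a liver enzyme of tyrosine breakdown that glucocorticoids induce, was at 5.55, 5.60, 5.55 and 5.45 in the 2BE spleens, against 5.86, 5.62, 5.49 and 5.57 in the vehicle spleens. Liver values were 14.34, 14.43, 14.13 and 14.35 after 2BE, against 12.45, 12.84 and 12.84 after vehicle. Its spleen means lay at the 36.3rd percentile after 2BE and the 37.2nd after vehicle. Tat stood at -0.09 in the spleen and rose 3.04-fold in the liver (difference -1.70, adjusted p = 4.59e-05).

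Cyp2b10, a cytochrome P450 that the receptor CAR induces, was at 6.98, 6.97, 6.93 and 6.79 in the 2BE spleens, against 7.01, 6.86, 7.12 and 7.00 in the vehicle spleens. Among livers it stood at 10.97, 10.20, 11.55 and 10.11 after 2BE, against 7.39, 8.62 and 7.66 after vehicle. The liver arms were apart and the spleen arms overlapped, with responses of -0.08 ± 0.09 and 2.82 ± 0.44 and a difference of -2.90 ± 0.42 (adjusted p = 0.00193). Of 21 P450 and xenobiotic receptor genes 0 were called in the spleen by limma, also at an unadjusted p under 0.05, and Cyp2b10 was the 1 that rose in the liver, where 3.24% of all genes did. The antiproliferative gene Btg2 was at 11.61, 11.56, 11.31 and 11.47 in the 2BE spleens, against 11.30, 11.42, 10.95 and 11.22 in the vehicle spleens. Its liver levels were 9.25, 10.39, 10.06 and 10.96 after 2BE, against 7.78, 7.75 and 7.98 after vehicle. Vehicle spleens were already at the 97.4th percentile of spleen probe sets, against the 80.3rd of liver probe sets in the vehicle livers. Btg2 stood at 0.26 ± 0.11 in the spleen and rose by 2.33 ± 0.31 in the liver (difference -2.07 ± 0.36, adjusted p = 0.00811). Trp53inp1, a p53-induced gene of arrest and autophagy, was at 11.52, 11.99, 11.53 and 11.80 in the 2BE spleens, against 11.52, 11.72, 11.43 and 11.94 in the vehicle spleens. The liver arrays read 11.23, 12.12, 11.65 and 12.43 after 2BE, against 9.45, 9.72 and 9.64 after vehicle. The treated livers were all higher than the vehicle livers, and the spleen arms overlapped at the 98.3rd percentile. Its responses were 0.06 ± 0.13 in the spleen and 2.26 ± 0.32 in the liver, with a difference of -2.20 (adjusted p = 0.00154).

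Thbd, the anticoagulant receptor thrombomodulin of endothelial cells, was the 1 gene of the endothelial list with a difference called lower in the spleen. It was at 9.34, 9.77, 9.35 and 9.18 in the 2BE spleens, against 8.72, 9.0, 8.67 and 9.31 in the vehicle spleens. Levels in the liver were 7.24, 8.38, 8.96 and 9.03 after 2BE, against 5.29, 5.92 and 6.06 after vehicle. The spleen arms overlapped and the liver arms did not. Thbd stood at 0.48 ± 0.16 in the spleen (adjusted p = 0.0917) and rose by 2.65 ± 0.34 in the liver, and the difference of -2.16 ± 0.46 passed narrowly (adjusted p = 0.0281). It remained called without vehicle liver replicate 3, liver 2BE replicate 1, vehicle spleen replicate 1 or 3 or spleen 2BE replicate 2, and it was lost without each of the other 10 arrays (adjusted p of 0.0531 to 0.0857). Further liver-only rises were those of Atp1b1, a subunit of the sodium pump (0.06 in the spleen and 2.47 in the liver), and Mfsd2a, a transporter of lysophospholipids (0.07 and 2.25). Both differences passed (adjusted p = 0.00120 and 8.11e-05). With the block the Mfsd2a liver response had an adjusted p of 0.0752. One of 5 Atp1b1 probe sets gave -0.03 in the liver.

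**Figure D4:**
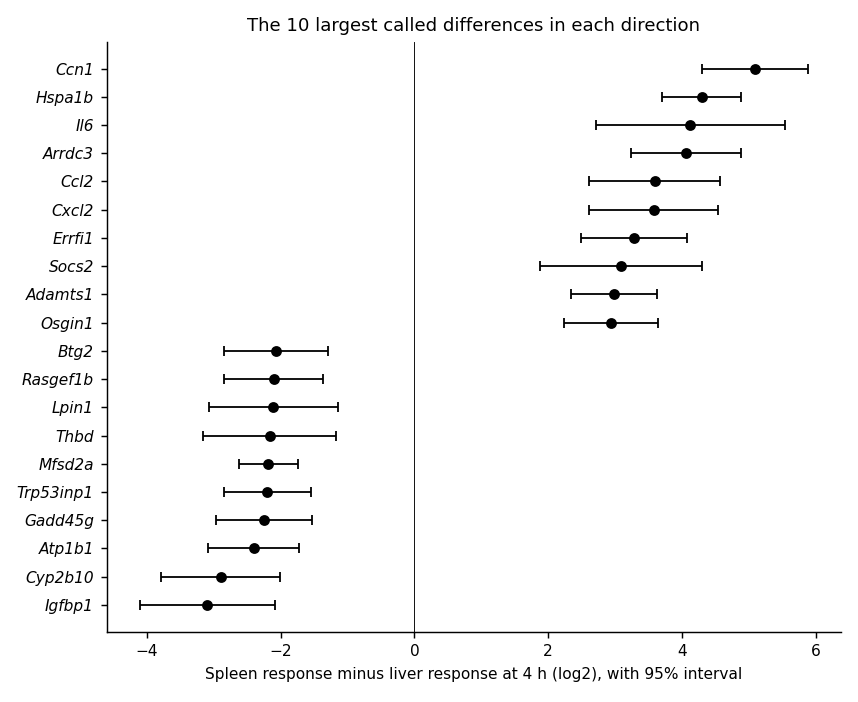
The 10 largest called differences in each direction among genes taken by the naming rule, as spleen response minus liver response (log2, x axis) with 95% intervals of the fit of 15 arrays. Ccn1 and Hspa1b lie at the top at 5.09 and 4.29, and Igfbp1 and Cyp2b10 at the bottom at -3.10 and -2.90.

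Falls were fewer than rises and rarely shared. Socs2, a suppressor of cytokine signalling that growth hormone induces through STAT5, was at 8.18, 8.26, 7.96 and 8.14 in the 2BE spleens, against 8.46, 7.89, 7.97 and 8.35 in the vehicle spleens. In livers the values were 5.19, 7.29, 5.82 and 7.27 after 2BE, against 10.13, 9.42 and 9.0 after vehicle. Every treated liver lay below every vehicle liver, while the spleen arms overlapped. Socs2 stood at -0.03 ± 0.16 in the spleen and fell 8.73-fold in the liver (-3.13 ± 0.48), a difference of 3.09 ± 0.57 (adjusted p = 0.0106). Its other probe sets gave -3.10 to -0.01 in the liver, and the mean over all of them gave a difference of 1.08 (adjusted p = 0.0577). Of 13 growth hormone and STAT5 response genes 0 changed in the spleen by limma (3 at an unadjusted p under 0.05) and 4 fell in the liver. Among all genes 1.27% fell in the liver and 5.16% changed in the spleen. Onecut1, a hepatocyte transcription factor, stood at -0.04 in the spleen and fell in the liver, with a log2 fold change of -1.58 (difference adjusted p = 0.0123, 0.0835 with the block). Arrdc3, an arrestin-domain protein that sends receptors to lysosomes, was at 9.07, 9.58, 9.47 and 9.77 in the 2BE spleens, against 8.79, 9.10, 9.17 and 8.83 in the vehicle spleens. The livers stood at 7.26, 6.20, 6.86 and 5.97 after 2BE, against 10.12, 10.64 and 9.63 after vehicle. The liver arms were far apart and the spleen arms overlapped. Arrdc3 stood at 0.50 ± 0.16 in the spleen (adjusted p = 0.0756) and fell 11.8-fold in the liver (-3.56 ± 0.70), so that the difference was 4.06 ± 0.38 (adjusted p = 8.11e-05).

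The 6 spleen-only falls were those of Ncr1, Ccr2, Ccr3, Kcnj16, Sectm1a and Sned1. Ncr1, which encodes a receptor that activates natural killer (NK) cells, was at 6.26, 5.92, 6.27 and 5.63 in the 2BE spleens, against 7.45, 7.67, 7.16 and 7.55 in the vehicle spleens. On liver arrays it read 4.39, 4.42, 4.36 and 4.39 after 2BE, against 4.39, 4.39 and 4.37 after vehicle. The treated spleens lay below the vehicle spleens, and the livers were level at about the 30th percentile of probe sets. It fell 2.71-fold in the spleen (-1.44 ± 0.18) and stood at 0.01 ± 0.09 in the liver (difference -1.44, adjusted p = 0.00120). Ccr2, the receptor of Ccl2 on monocytes, was at 8.80, 8.69, 9.22 and 9.41 in the 2BE spleens, against 9.82, 10.12, 10.35 and 10.17 in the vehicle spleens. Liver values were 4.16, 4.34, 4.30 and 4.46 after 2BE, against 4.34, 4.34 and 4.48 after vehicle. It fell 2.12-fold in the spleen and stood at -0.07 in the liver, with a difference of -1.01 ± 0.21 (adjusted p = 0.0271). That difference was not called without any of 6 arrays (vehicle liver replicate 1 or 2, liver 2BE replicate 2 or 4, vehicle spleen replicate 4 or spleen 2BE replicate 1, adjusted p of 0.0515 to 0.0739). It was also lost with the mean of all probe sets. Kcnj16, a potassium channel subunit gene, had a log2 fold change of -1.10 ± 0.16 in the spleen and -0.06 in the liver (difference adjusted p = 0.00176), and its difference was called in each alternative run. Ccr3, the eotaxin receptor gene, had -1.04 and -0.02 (difference adjusted p = 0.0221, and 0.0523 to 0.0533 without any 1 vehicle liver). Sectm1a had -1.38 and -0.08 (difference adjusted p = 0.0178, 0.0548 with the block). Sned1 had -1.14 and -0.08, and its difference (adjusted p = 0.0376) was lost with the block (0.13) and without any of 10 arrays (0.0581 to 0.0989), and kept without vehicle liver replicate 1, liver 2BE replicate 2, vehicle spleen replicate 1 or 3 or spleen 2BE replicate 1. Of 7 NK cell markers 2 fell in the spleen, Ncr1 and the granule protease gene Gzma (-0.97 ± 0.20), both with called differences, and 0 changed in the liver by limma (1 at an unadjusted p under 0.05). The summed level of the NK list was 1814 to 1941 intensity units in the 2BE spleens and 2209 to 3392 in the vehicle spleens. Of 9 T cell markers 1 fell in the spleen. Of 9 B cell and 8 neutrophil markers 0 changed there by limma, with 1 and 2 at an unadjusted p under 0.05. Among all genes 1.85% fell in the spleen.

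Among the 23 genes that fell in both organs, those named by size were Nrep, Tnfsf10, Rtn4rl1, Pilrb1, Ypel3 and Rgs3. Nrep had log2 fold changes of -0.71 in the spleen and -1.20 in the liver. Tnfsf10, the death ligand TRAIL, had -0.49 and -1.03, and its difference of 0.54 passed without liver 2BE replicate 1 (0.71, adjusted p = 0.0179). The liver falls of Rtn4rl1, Pilrb1, Ypel3 and Rgs3 were lost with the block (adjusted p = 0.0627, 0.0696, 0.0728 and 0.156) and in 4 to 6 of the 7 fits that each left out a liver array, with vehicle replicates 1 and 2 and 2BE replicate 4 among them for each gene. The spleen falls of Rtn4rl1 and Pilrb1 were lost without spleen 2BE replicate 4 (adjusted p = 0.0678 and 0.0505).

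Antioxidant genes gave calls in both directions. Of 20 genes induced by Nrf2, the transcription factor of oxidative and electrophile stress, 5 rose and 1 fell in the spleen, 3 rose and 1 fell in the liver, and 3 differences were called, all higher in the spleen. Among all genes 3.31% rose and 1.85% fell in the spleen, 3.24% rose and 1.27% fell in the liver, and 1.78% had a called difference. Osgin1, an oxidative stress-induced growth inhibitor, was at 9.20, 9.01, 8.26 and 8.46 in the 2BE spleens, against 7.29, 7.60, 7.42 and 7.63 in the vehicle spleens. Among livers it stood at 9.20, 8.59, 9.10 and 8.80 after 2BE, against 10.11, 10.65 and 11.10 after vehicle. The treated spleens were all above the vehicle spleens and the treated livers all below the vehicle livers. It rose by 1.24 ± 0.15 in the spleen (adjusted p = 3.1e-05) and fell in the liver (-1.70 ± 0.32, adjusted p = 0.00643, 0.0512 with the block), a difference of 2.94 ± 0.33 (adjusted p = 0.000335). The other 6 genes called in opposite directions were Rasl11b, Lima1 and Nmrk1, higher in the spleen and lower in the liver, and Rhobtb1, Ccng2 and Gja4, lower in the spleen and higher in the liver. Lima1, which encodes an actin cross-linking protein, stood at 1.14 and -0.60, and Ccng2, an atypical cyclin, at -0.51 and 0.92. The liver calls of Lima1 and Rasl11b were lost with the block (adjusted p = 0.205 and 0.0786). That of Lima1 was also lost without any single liver array but 2BE replicate 1 (0.0634 to 0.133), and that of Rasl11b without vehicle replicate 1 or 3 or 2BE replicate 3 or 4 (0.0683 to 0.113). Rhobtb1 stood at -0.41 and 1.16, and its spleen call was lost without any single spleen array but vehicle replicate 3 (0.06 to 0.0898) and in the fit of all 44 arrays (0.0664). The liver call of Ccng2 was lost without vehicle replicate 2 (0.0588). Gja4, a connexin gene, stood at -0.53 and 0.93. Its spleen call was lost without 2BE replicate 4 (0.0513), and its liver call without vehicle replicate 3 (0.0559) and with the block (0.068). With responses from the 15 arrays the spleen calls of Rhobtb1, Ccng2 and Gja4 were lost (0.206, 0.082 and 0.0687).

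Hmox1, which encodes haem oxygenase 1, the enzyme that breaks down haem, was at 11.17, 11.61, 10.54 and 10.92 in the 2BE spleens, against 8.78, 11.16, 9.82 and 11.17 in the vehicle spleens. Its liver levels were 9.44, 9.48, 10.23 and 10.35 after 2BE, against 6.54, 6.42 and 6.94 after vehicle. The vehicle spleens spread over more than 2 log2 units and overlapped the treated spleens, whereas the treated livers all lay above the vehicle livers. Hmox1 stood at 0.83 ± 0.38 in the spleen (adjusted p = 0.252) and rose 9.45-fold in the liver (3.24 ± 0.21, adjusted p = 9.12e-07). The difference of -2.41 ± 0.64 did not pass in the fit of 15 arrays (adjusted p = 0.0802, interval -3.78 to -1.04). It did pass in a fit over all 44 arrays (adjusted p = 0.000268), with array weights (-2.49, adjusted p = 0.0495) and without vehicle spleen replicate 1, the lowest of the vehicle spleens (-2.90, adjusted p = 0.0094). Srxn1, which repairs oxidised peroxiredoxins, rose in both organs, by 1.77 and 0.90, with other probe sets from -0.10 to 1.35 in the spleen and from 0.11 to 0.76 in the liver. Gclc, the rate-limiting enzyme of glutathione synthesis, rose by 0.93 in the spleen and stood at -0.24 in the liver (difference adjusted p = 0.0297). That difference was lost without any of 10 arrays (adjusted p of 0.0552 to 0.0893), and kept without vehicle liver replicate 3, liver 2BE replicate 1, vehicle spleen replicate 1 or 3 or spleen 2BE replicate 2.

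Further lists had few or no called differences between the organs. Over all genes 3.31% rose and 1.85% fell in the spleen, 3.24% rose and 1.27% fell in the liver, and 1.78% had a called difference. Of 24 genes of the endoplasmic reticulum and integrated stress response 0 changed in the spleen by limma (5 at an unadjusted p under 0.05) and 2 rose in the liver, and of 20 haem and iron handling genes 2 rose in each organ and 1 fell in the liver. Of 25 hypoxia-inducible genes 5 rose in the spleen and 3 in the liver, at medians of 0.11 and 0.16. Adm and Edn1, vasoactive peptide genes of that list, rose by 1.22 and 0.94 in the spleen and stood at 0.16 and 0.02 in the liver, with called differences (adjusted p = 0.0499 and 0.0210). The Adm difference was lost without any of 11 arrays (adjusted p up to 0.127) and kept without vehicle liver replicate 1, liver 2BE replicate 4 or vehicle spleen replicate 2 or 3. That of Edn1 was lost without vehicle liver replicate 1 or 3 (0.0519 and 0.0564) and with the block (0.0926). Of 18 cholesterol genes 8 rose in the spleen and 2 in the liver, with near-equal medians of 0.25 and 0.25 and 0 called differences by limma (2 at an unadjusted p under 0.05). Of 22 interferon-stimulated genes 1 fell in the spleen, and 1 rose and 1 fell in the liver.

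**Figure D5:**
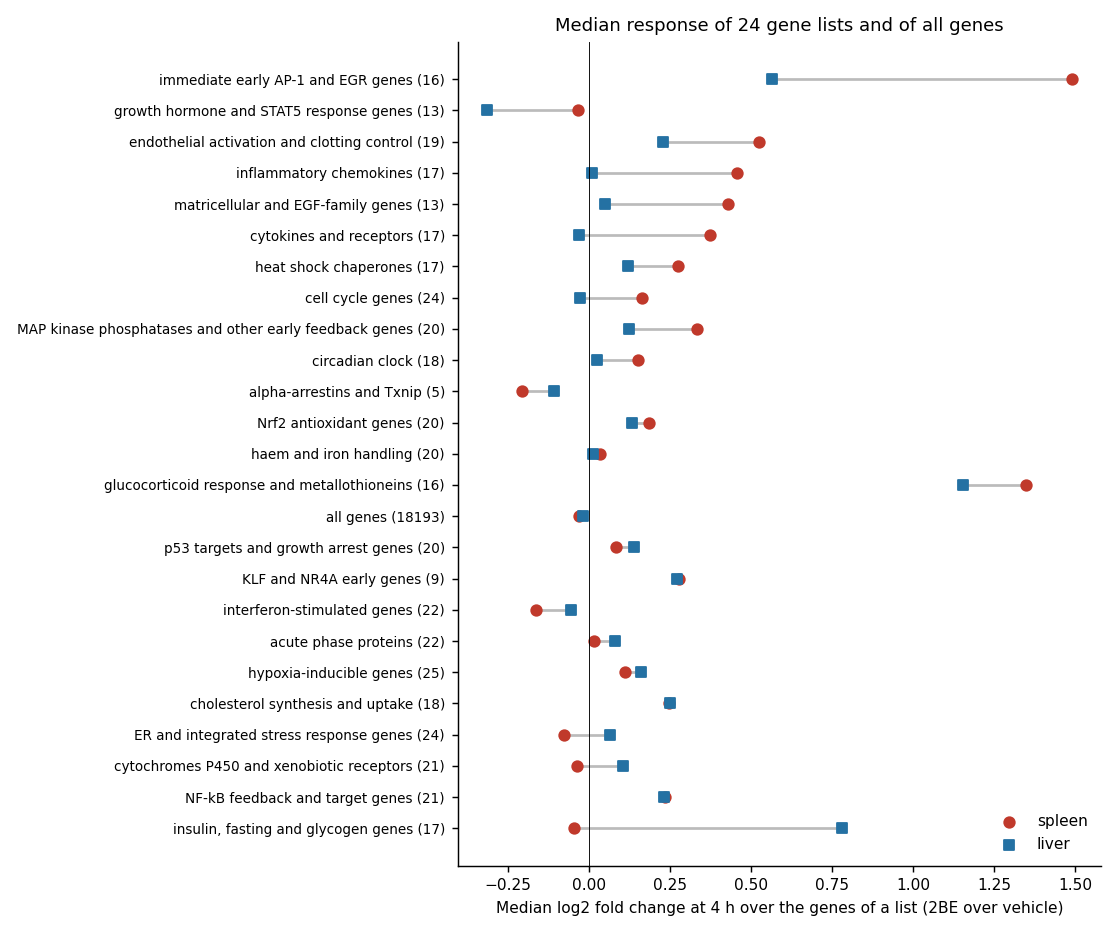
Median log2 fold change of 2BE over vehicle (x axis) of 24 gene lists and of all genes in the spleen (circles) and the liver (squares), ordered by the median difference, with the number of measured genes in brackets. Immediate early genes stand at 1.49 in the spleen and 0.56 in the liver, glucocorticoid response genes at 1.35 and 1.15, and insulin, fasting and glycogen genes at -0.05 and 0.78.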

How the data were processed

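The deposited table holds intensity values per probe set, made by the authors with RMA, per the submitters' processing notes (version not given in the sources used here). RMA corrects background, normalizes by quantiles and summarises probes. Values ran from 6.16 to 47797.8 on a linear scale, and log2(intensity + 1) was computed from the deposited values, which understates the change of low genes. The table lists 45101 probe sets, 64 of them controls that entered nothing. Among the remaining 45037, 34945 have 1 gene symbol, 932 several and 9160 none in the platform annotation, and 34741 IDs were found in RefSeq's table, with 0 symbols changed. Each of 18193 genes is represented by its brightest probe set, by the mean log2 level on the 44 arrays. Tests are two-sided moderated tests of limma (version 3.58.1, R 4.3.3; lmFit with a mean per group, then eBayes), with Benjamini-Hochberg adjustment over 18193 genes and a threshold of 0.05. The difference used the 15 arrays, and each organ's response used all arrays of that organ, both times. Values after ± are moderated standard errors, and the number of arrays limits the precision.

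Members, lists and the naming rule were chosen with earlier results of these data known. Genes named were up to 10 per direction with the largest called difference, up to 10 shared rises, 6 shared falls, 10 rises and 5 falls of a single organ and 5 opposite genes. Their arms had to be apart and their level above the organ's median. List members in a class or with a called difference and a fixed set were added; genes outside this rule are given only as list members or where stated. In the liver, same-numbered 2BE and vehicle arrays correlated at 0.132 to 0.282 in 3 pairs, and arrays of unlike number at -0.301 to 0.370 in 9. The ranges overlap, so it is not settled that the numbers pair the arms. The main liver fit has no pairing, and the block on the replicate number within organs is an alternative. In the spleen, same-numbered arrays correlated at -0.381 to 0.543 and arrays of unlike number at -0.593 to 0.558. Between organs, same-numbered arrays correlated at 0.035 to 0.130 after 2BE and 0.036 to 0.089 after vehicle. Arrays of unlike number gave -0.104 to 0.046 and -0.074 to 0.058 there. These between-organ correlations are weak but mostly higher for like numbers, and the main fit of the difference has no pairing. Promoter windows matched 14452 of the genes, and 6 motifs were searched on both strands: those given in the report, a glucocorticoid receptor site (ACANNNTGT) and the CArG box. Also tried were other pseudocounts, a filter, normalizations, fits, probe-set means, blocks and leaving out each array. Settings that moved the counts are given in the closing section, with some but not all of the single-gene calls that they ended.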

Additional observations from a re-analysis of the deposited data

Results flagged for a closer look

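Among the 32 genes given by array, 96 groups of 4 arrays were checked for an array far from its group, and 2 such arrays were found. Chance alone flags about 1 in 20 groups, which is more than were found. Cxcl2 stood at 6.95 in liver 2BE replicate 4, against 5.74 to 5.86 in the other treated livers. Ccl2 stood at 5.96 in liver 2BE replicate 1, against 5.66 to 5.68 in the others. The vehicle livers, with 3 arrays, were not checked.

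The response differed between the organs, by the test of the difference itself, for 23 of these 32 genes, against 323 of all 18193 (1.78%). Many of the 32 were named because their difference was called, so this count follows from the choice of genes. A difference called higher in the spleen was found for 2 of 17 chemokine, 3 of 17 cytokine and 2 of 17 chaperone genes. Of those given by array, Il6 was higher in the spleen response by 4.12, Ccl2 by 3.59, Cxcl2 by 3.57, Hspa1b by 4.29 and Hspa1a by 2.38 on the log2 scale. So were Ccn1 by 5.09, Adamts1 by 2.98, Apold1 by 2.85, Errfi1 by 3.28 and Atf3 by 1.53. Arrdc3 (4.06), Socs2 (3.09) and Osgin1 (2.94) were also higher in the spleen response, with falls in the liver. Lower in the spleen response were Igfbp1 (-3.10), Cyp2b10 (-2.90), Gadd45g (-2.24), Trp53inp1 (-2.20), Thbd (-2.16), Btg2 (-2.07), Tat (-1.70) and Ppargc1a (-1.66). Ncr1 (-1.44) and Ccr2 (-1.01) were lower through falls in the spleen.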

How the results depend on the processing

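Of the 228 called differences and responses of the 113 genes put through the alternatives, 0 changed sign where a value was given. Counts moved more. In a fit of all 44 arrays, 861 differences, 1668 spleen and 1288 liver responses were called, with 38 shared falls, 27 opposite genes, 66 liver-only rises and 22 liver-only falls. With organ responses from the 15 arrays there were 532 liver calls, 58 shared rises, 8 shared falls and 2 opposite genes. With each organ's own 4 h arrays there were 508 spleen calls, 176 liver calls, 25 shared rises, 1 shared fall and 2 opposite genes. Further quantile normalization gave 40 shared falls and 15 opposite genes, and rising shares of 52.5% in the spleen and 57.6% in the liver, against 64.2% and 71.9%. Opposite genes numbered 11 after median centring, 12 with array weights and 11 with the mean of probe sets, which gave 27 liver-only rises. A pseudocount of 16 gave 3 spleen-only falls.

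The replicate block within organs gave 241 differences, 471 liver calls, 7 shared falls and 6 liver-only falls. A replicate block pairing organs within an arm gave 159 differences (64.2% higher in the spleen), 25 liver-only rises and 5 liver-only falls. Same-numbered arrays of the organs correlated weakly, and mostly above arrays of unlike number, so this pairing is not set aside. The block pairing organs ended 19 of 68 difference calls of single genes, among them Btg2 (adjusted p = 0.0531), Atf3 (0.0531), Csf3 (0.0657), Nr4a1 (0.0884), Lif (0.0885), Thbd (0.0907), Sned1 (0.0954), Gclc (0.115), Des (0.124) and Adm (0.168). It made those of Ccn2 (0.0317), Mt1 (0.00139) and Mt2 (0.00432). The block within organs ended 13 of the 68, and own variances ended 29 of 70 liver and 13 of 90 spleen calls of single genes, among them the liver calls of Fos (0.0523), Sgk1 (0.122), Srxn1 (0.072) and Tnfsf10 (0.0634).

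Leaving out each array in turn gave 214 to 366 differences (fewest without vehicle liver replicate 1), 111 to 167 higher and 99 to 200 lower in the spleen. It gave 636 to 1027 spleen calls and 466 to 1090 liver calls (466 without 2BE replicate 4, 484 without vehicle replicate 1). Shared rises were 68 to 122, shared falls 9 to 31, opposite genes 5 to 13 and unequal shared genes 8 to 19. Single-organ classes held 35 to 57 spleen-only rises, 31 to 54 liver-only rises, 3 to 8 spleen-only falls and 6 to 21 liver-only falls. The causes were not tested. The log2(intensity + 1) scale and the lack of detection values limit the genes near background.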

Other observations

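Of the 323 genes with a called difference, 181 have more than 1 probe set. In a fit over all 45037 probe sets, the other probe sets all had the sign of the 1 used in 144 of the 181 genes. In 75 genes another probe set was called the same way, and in 0 genes was another called the other way. Of the 9160 probe sets with no symbol, which entered no gene count, 113 had a called difference, 59 higher and 54 lower in the spleen.

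Fabp4, a fatty acid carrier of adipocytes and endothelial cells, rose in both organs, by 2.81 in the spleen and 1.49 in the liver. It was at 12.14 in spleen 2BE replicate 3, the array with high Adipoq, and at 9.64 to 9.97 in the other treated spleens, against 7.07 to 8.69 in the vehicle spleens. In the liver it was at 8.61 to 9.47 in the 2BE livers, against 7.03 to 7.98 in the vehicle livers. Without that spleen the 2BE arrays also stood higher, and the spleen call was lost (2.24, adjusted p = 0.107), as it was without vehicle spleen replicate 1, 2 or 3 or 2BE spleen replicate 4 (0.0502 to 0.0884). The liver call was lost in a fit of all 44 arrays (0.112).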
